A study of Mus musculus with 28 samples.

Results

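The genes described here are 8 components of cytosolic nucleic acid sensing, taken by name from the 55341 genes listed in both tables of gene counts. They are the DNA sensors Zbp1 and Aim2, the RNA sensors Ddx58 (RIG-I) and Ifih1 (MDA5), the adaptors Tmem173 (STING) and Mavs, the kinase Tbk1 and the DNA exonuclease Trex1. Their RNA was measured in 28 AB1-HA tumors, 1 from each mouse. AB1-HA is a mouse mesothelioma cell line, inoculated under the skin of female BALB/c.AusBP mice of 8 to 10 weeks. When tumors reached 20 to 25 mm2, mice received PBS (n = 4), immune checkpoint blockade (ICB, n = 5), 5-fluorouracil (5-FU, n = 5), cisplatin (n = 4) or either drug with ICB (n = 5 for 5-FU+ICB, n = 5 for Cisplatin+ICB). ICB was 100 µg of anti-CTLA-4 with 100 µg of anti-PD-L1, followed by 2 further doses of anti-PD-L1. The dose was 75 mg/kg for 5-FU, injected into a vein, and 6 mg/kg for cisplatin, injected into the peritoneum. All tumors were taken 7 days after treatment began and sequenced whole, so every value pools tumor cells with the stromal and immune cells inside the tumor, and 1 cell line stands for the disease.

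DNA or RNA in the cytosol is a sign of infection or of cell damage. Aim2 binds DNA and assembles the inflammasome, Zbp1 binds left-handed nucleic acid and can start necroptosis through Ripk3, and the enzyme cGAS makes a cyclic dinucleotide that activates STING. RIG-I and MDA5 bind RNA and signal through Mavs on mitochondria. Both adaptors recruit Tbk1, which phosphorylates Irf3 to switch on type I interferon, while Trex1 degrades cytosolic DNA and so limits the signal. Zbp1, Ddx58 and Ifih1 are themselves known to be induced by interferon, and all these genes are known to be expressed in macrophages and other leukocytes as well as in many tumor cells.

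RefSeq start regions on build GRCm38.p6 are shown for the members that differ most in whether they contain an interferon-stimulated response element (ISRE) core. The core was searched as GAAA, any 2 bases and GAAA again, and for the other strand as TTTC, any 2 bases and TTTC, in windows of 250 bases before to 50 bases after each start. Of 32851 such windows, 3.44% contained it. Among the 6 members with a window (Aim2, Ddx58, Ifih1, Tbk1, Mavs and Trex1), it was found in Ddx58 and in Ifih1, in each case downstream of the start, and capitals mark it in the first and second lines. The first stretch is chr4:40239796-40239825 on the minus strand, bases 1 to 30 of Ddx58. The second is chr2:62646206-62646235 on the minus strand, bases 21 to 50 of Ifih1.

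Ddx58, first 30 bases: agTTTCGATTTCctatggccagccggctag
Ifih1, bases 21 to 50: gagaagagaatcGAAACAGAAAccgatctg

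The 100 bases before 4 of the starts are set beside each other below, to compare both RNA sensors with their adaptor Mavs and with Aim2. They are chr4:40239826-40239925 (minus) for Ddx58, chr2:62646256-62646355 (minus) for Ifih1, chr2:131233963-131234062 (plus) for Mavs and chr1:173420504-173420603 (plus) for Aim2. In Ddx58 the capitals mark a GAAA repeat with a spacing of 1 base (GAAANGAAA, or TTTCNTTTC on the other strand) that begins 60 bases before the start. This form was looked for after the sequence had been seen, and 3.17% of windows held it.

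Ddx58, 100 bases before the start: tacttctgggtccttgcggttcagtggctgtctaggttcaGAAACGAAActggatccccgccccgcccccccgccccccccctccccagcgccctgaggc
Ifih1, 100 bases before the start: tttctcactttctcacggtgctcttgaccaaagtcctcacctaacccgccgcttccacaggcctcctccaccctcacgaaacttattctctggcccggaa
Mavs, 100 bases before the start: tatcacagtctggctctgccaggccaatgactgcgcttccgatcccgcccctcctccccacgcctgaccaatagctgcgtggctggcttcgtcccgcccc
Aim2, 100 bases before the start: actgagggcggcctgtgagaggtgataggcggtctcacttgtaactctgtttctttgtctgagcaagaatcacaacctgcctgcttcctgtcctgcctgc

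No window of the 6 members held the interferon-gamma activated core TTCNNNGAA, which 8.3% of all windows held and which reads the same on both strands. None held the NF-kB core, searched as GGG, any 2 bases and TTTCC (for the other strand GGAAA, any 2 bases and CCC), which was in 1.63% of windows. A match is a run of letters, not a bound site, and a window without a match says only that these letters are not in it.

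Library totals ran from 23541733 to 33950805 estimated counts with a median of 28797551.5, and the smallest count of any member in any tumor was 95. Mitochondrial genes took 1.03% to 16.1% of the counts. Msln, a mesothelial marker, was at 271 to 358 CPM (counts divided by the scaled size of the library) in PBS tumors, whereas the mesothelial markers Upk3b and Lrrn4 did not exceed 2 and 13 counts in any tumor. Cisplatin+ICB replicate 1 stood apart: its median absolute log2 difference from the other tumors of its group was 1.33 over 13334 genes. The next largest were 0.53 in 5-FU+ICB replicate 2, 0.50 in PBS replicate 2 and 0.46 in 5-FU+ICB replicate 5, and the rest did not exceed 0.37. 5-FU+ICB replicate 5 had the lowest Msln, 10 counts (0.50 CPM), and the highest mitochondrial share. Cisplatin+ICB replicate 1 had the highest Msln (654 CPM), the lowest mitochondrial share and the lowest TMM scaling factor (0.685). Of all tumors it also had the lowest summed fibroblast (858 CPM) and endothelial (27.1 CPM) markers and the highest monocyte markers (892 CPM). Values without these libraries are given beside the results they moved most.

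Per length of exon, the PBS tumors held most RNA of Tmem173 (27.3 CPM per kilobase on average), Trex1 (22.8) and Zbp1 (20.6). Aim2 (13.9), Tbk1 (10.7), Ddx58 (8.45) and Mavs (7.99) followed, and Ifih1 was lowest at 3.36 CPM per kilobase. Neighbours in this order had overlapping ranges over the 4 tumors, except Mavs and Ifih1. In ICB tumors Zbp1 (62.8), Tmem173 (59.8) and Trex1 (50.6) formed an upper group whose ranges lay above those of Tbk1 (14.3), Ddx58 (13.8), Mavs (10.6), Aim2 (9.18) and Ifih1 (7.28). Within each of these sets, neighbours overlapped. Trex1 lies within the span of Atrip on the same strand and shares exon sequence with it, and Aim2 overlaps Cadm3 on the opposite strand, so part of the reads of these members may belong to their neighbours.

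**Figure D1:**
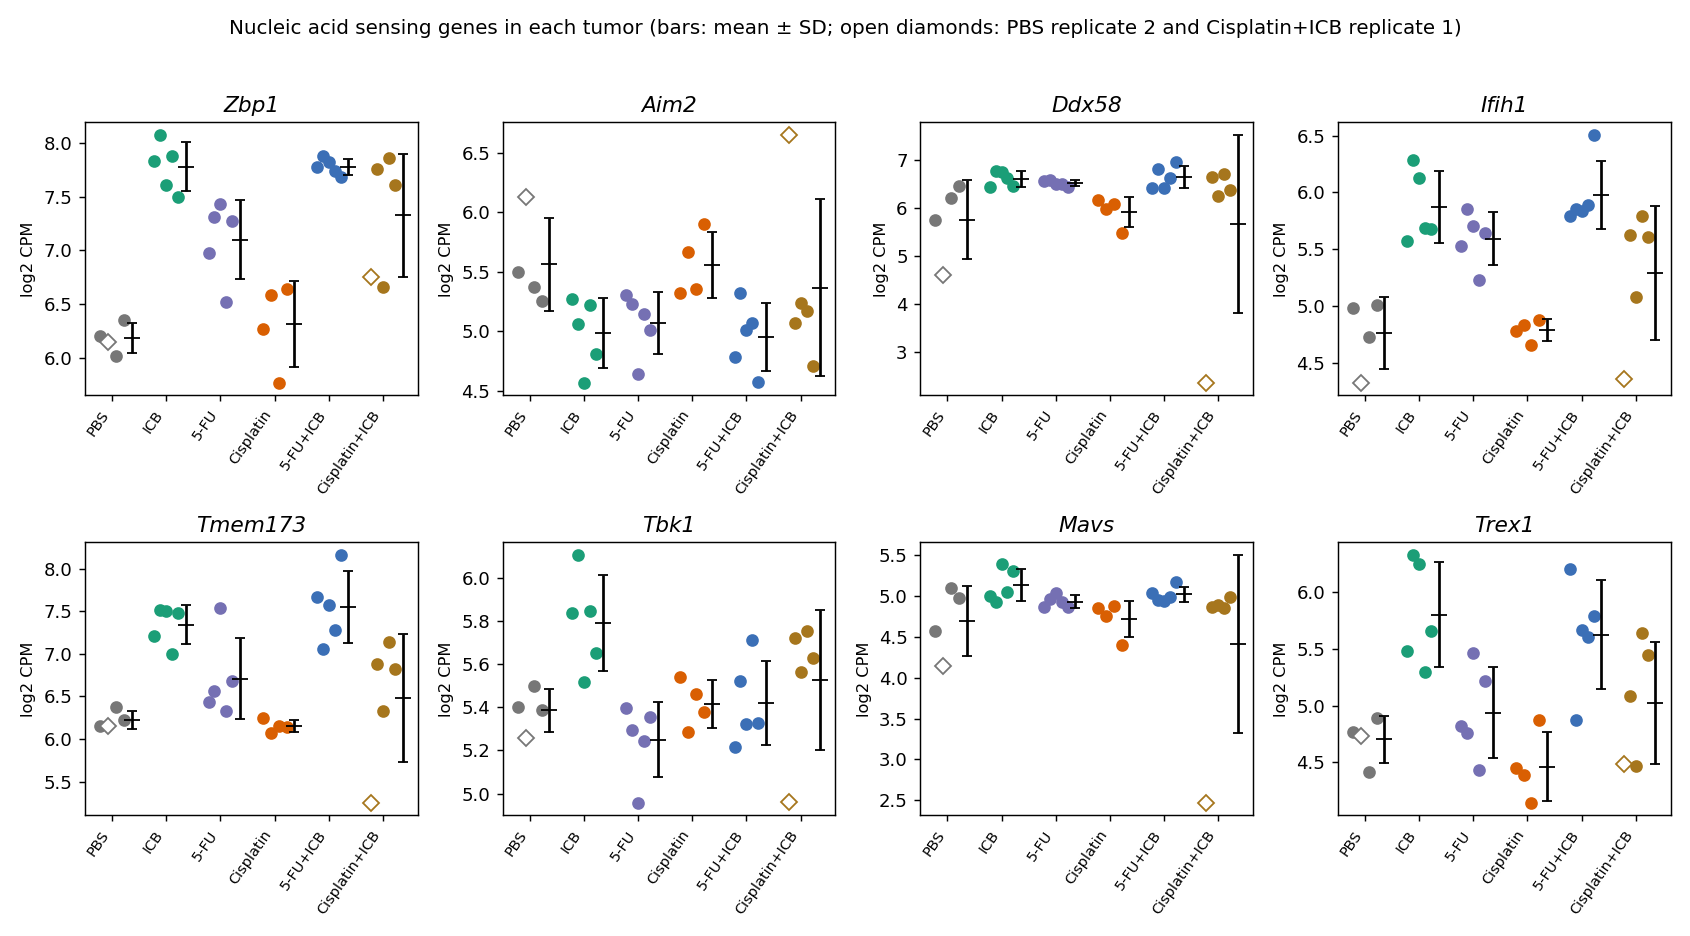
Log2 CPM of each of the 8 genes (y axes, each with its own range) in every tumor, by treatment group, 1 point per tumor, with the group mean ± SD beside the points and PBS replicate 2 and Cisplatin+ICB replicate 1 as open diamonds. Zbp1, Ifih1 and Tmem173 lie higher in ICB and 5-FU+ICB tumors than in any PBS tumor, and Cisplatin+ICB replicate 1 lies far from its group for Aim2, Ddx58, Tbk1 and Mavs.

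ICB alone raised 5 of the 8 genes over PBS and lowered 1. Zbp1 rose most (3.11-fold), followed by Trex1 (2.26-fold), Tmem173 (2.23-fold), Ifih1 (2.22-fold) and Ddx58 (1.69-fold), while Aim2 was 1.5-fold lower. Tbk1 and Mavs were each 1.36-fold higher with adjusted p of 0.0168 and 0.0172, short of the log2 change of 0.5 that a call required. The same rule (edgeR quasi-likelihood test, Benjamini-Hochberg adjusted p below 0.05) called 37.8% of the 17916 genes tested in this comparison, 19% higher and 18.8% lower. The median log2 fold change was 0.95 over the 8 genes and -0.03 over all genes tested. In bulk tumors, a lower level from fewer cells of a type and one from less RNA per cell cannot be told apart, nor can the corresponding rises.

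5-FU alone raised Zbp1 (1.95-fold), Ifih1 (1.79-fold) and Ddx58 (1.56-fold) over PBS and lowered none of the 8. Of all genes tested, 23% were called, 9.98% higher and 13% lower. 5-FU+ICB raised the same 5 genes as ICB, Zbp1 by 3.07-fold, Tmem173 by 2.65-fold, Ifih1 by 2.38-fold, Trex1 by 1.99-fold and Ddx58 by 1.74-fold, and lowered Aim2 by 1.54-fold, against 40.7% of all genes called (21.9% higher, 18.7% lower). Cisplatin+ICB raised Zbp1 (2.37-fold) alone among the 8, against 6.1% of all genes called (4.7% higher, 1.4% lower). Without Cisplatin+ICB replicate 1 it raised 4 of the 8, against 35.3% of all genes called. For cisplatin alone, 0 of the 8 genes passed edgeR's test, 0 had an unadjusted p below 0.05 and 0 passed with DESeq2. Over all genes 0 of 17819 were called with edgeR (0%) and 4 with DESeq2, and 3.44% of genes had groups that did not overlap, none of them a member. These comparisons share the 4 PBS tumors.

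**Figure D2:**
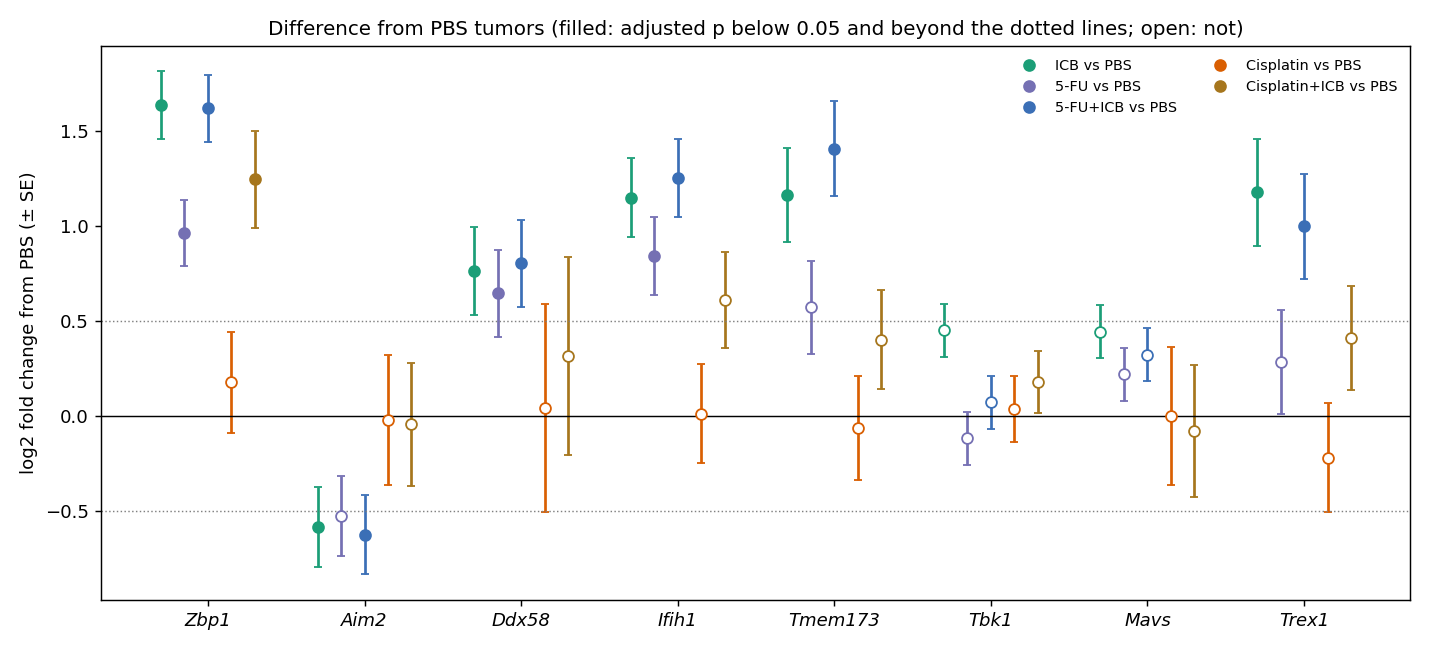
Log2 fold change of each gene from PBS with its standard error (y axis, log2 units) for the 5 treatments, filled where the test was passed, with dotted lines at the required size of 0.5. Zbp1 passed in the 4 treatments other than cisplatin, and the cisplatin points lie between -0.22 and 0.17.

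Zbp1 (chr2:173206612-173218923, minus strand of GRCm38, ENSMUSG00000027514.14) was at 73.4, 70.6, 64.8 and 81.8 CPM in the PBS tumors. In ICB tumors it was at 227, 269.6, 195, 235 and 181 CPM, every value more than any PBS tumor, and log2 fold change was 1.64 ± 0.18 (SE, adjusted p = 2.45e-05). It was at 219, 235, 226, 213 and 206 CPM with 5-FU+ICB, the narrowest spread among the treated groups (219.7 ± 11.2, SD), with a log2 fold change of 1.62 ± 0.18 (adjusted p = 3.00e-05). With 5-FU alone, values were 125, 158, 172, 91.4 and 155 CPM, between the PBS and the 5-FU+ICB tumors without overlapping either, and the change from PBS was 0.96 ± 0.17 (adjusted p = 0.00302).

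Cisplatin tumors had Zbp1 at 76.9, 96, 54.3 and 99.5 CPM, around the PBS values (0.17 ± 0.26, adjusted p = 1). Cisplatin+ICB tumors had 108, 216, 101, 232 and 195 CPM, with replicates 1 and 3 low but still above all PBS and Cisplatin tumors. The rise over PBS was 1.24 ± 0.26 (adjusted p = 0.0164), and 1.44 ± 0.25 (adjusted p = 0.00154) without replicate 1. It missed the threshold without PBS replicate 1 (adjusted p = 0.0757), 3 (0.0739) or 4 (0.0575). Zbp1 was the member whose groups did not overlap with PBS in each of the 4 treatments that raised it. Groups did not overlap with PBS for 5 of the 8 genes with ICB (37.4% of all genes), 2 with 5-FU (27%), 3 with 5-FU+ICB (25.5%) and 1 with Cisplatin+ICB (8.12%).

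Aim2 (chr1:173350879-173466040, plus strand, ENSMUSG00000037860.15) was the member that fell. It was at 45.1, 69.9, 41.5 and 38.0 CPM in PBS tumors and 38.5, 33.3, 23.6, 37.3 and 28.0 CPM in ICB tumors, which overlapped at the upper ICB and lower PBS values (log2 fold change -0.59 ± 0.21, adjusted p = 0.0330). The 5-FU+ICB tumors were at 27.5, 40.0, 32.3, 33.6 and 23.8 CPM (-0.63 ± 0.21, adjusted p = 0.0228). The highest PBS value was that of replicate 2, and without this tumor the change was -0.32 with ICB (adjusted p = 0.191) and -0.36 with 5-FU+ICB (adjusted p = 0.137). The call with 5-FU+ICB was also lost without 5-FU+ICB replicate 1 (-0.58, adjusted p = 0.0548) or 5 (-0.54, adjusted p = 0.0540), and the call with ICB without ICB replicate 2, 3 or 5 or PBS replicate 1. Both calls were also lost with no filter on low counts (-0.48 with ICB, adjusted p = 0.104, and -0.53 with 5-FU+ICB, adjusted p = 0.0645). The same held in a fit of all 28 tumors (adjusted p = 0.109 and 0.0877) and with only the groups compared (adjusted p = 0.0740 and 0.0851), and the call with ICB was lost in the fit of the cisplatin table (-0.59, adjusted p = 0.176).

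With 5-FU alone Aim2 was at 39.6, 37.4, 24.9, 35.3 and 32.2 CPM (-0.53 ± 0.21, adjusted p = 0.0692). Without PBS replicate 2 this change was -0.26 (adjusted p = 0.347), and it passed without PBS replicate 3 (-0.63, adjusted p = 0.0435) or 4 (-0.65, adjusted p = 0.0407). Cisplatin tumors had 39.9, 50.6, 40.8 and 59.6 CPM, inside the PBS range. In Cisplatin+ICB tumors values were 100.4, 33.4, 37.6, 36 and 26.1 CPM, with replicate 1 the highest of all 28 tumors, and the change from PBS was -0.05 (adjusted p = 0.966), or -0.49 without replicate 1 (adjusted p = 0.0920). Of 5 proliferation markers, 3 fell with ICB, 3 with 5-FU, where Aim2 was not called, and 3 with 5-FU+ICB (18.8%, 13% and 18.7% of all genes called lower). Their summed level was 1229 to 1760 CPM in PBS, 477 to 1341 CPM in ICB, 684 to 1430 CPM in 5-FU and 435 to 1692 CPM in 5-FU+ICB tumors. Their part in the change of Aim2 was not tested.

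Ddx58 (chr4:40203773-40239828, minus strand, ENSMUSG00000040296.15), the sensor of short RNA ends, varied most among PBS tumors, at 53.2, 24.2, 73.8 and 87.1 CPM. ICB tumors were at 85.6, 109, 108, 98.5 and 86.9 CPM, above all PBS tumors but replicate 4, and the change was 0.76 ± 0.23 (adjusted p = 0.0140). The 5-FU tumors were close together at 93.8, 95.3, 90.3, 89.4 and 86.0 CPM, and the change of 0.64 ± 0.23 was near the threshold (adjusted p = 0.0465). The 5-FU+ICB tumors were at 84.4, 111, 85.3, 98.5 and 123 CPM (0.80 ± 0.23, adjusted p = 0.0101).

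The lowest PBS value of Ddx58 was that of replicate 2. Without this tumor the change was 0.51 with ICB (adjusted p = 0.0201), 0.39 with 5-FU (adjusted p = 0.10) and 0.55 with 5-FU+ICB (adjusted p = 0.0145). The 5-FU call was lost in 14 of the 19 fits that left out 1 tumor. In a fit of all 28 tumors the calls with ICB (0.71, adjusted p = 0.209) and 5-FU+ICB (0.75, adjusted p = 0.179) were lost too, as were that with ICB in the fit of the cisplatin table (0.72, adjusted p = 0.302) and that with 5-FU+ICB when only the groups compared were fitted (0.86, adjusted p = 0.0546). Cisplatin tumors had 70.9, 62.3, 67.0 and 44.0 CPM, within the PBS range. Cisplatin+ICB tumors had 5.04, 99.3, 75.4, 104 and 82.6 CPM, and without the first the change from PBS was 0.70 ± 0.26 (adjusted p = 0.0398) in place of 0.31 ± 0.52.

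Ifih1 (chr2:62595798-62646255, minus strand, ENSMUSG00000026896.14), the sensor of long RNA duplexes, was at 31.5, 19.9, 26.3 and 32.1 CPM in PBS tumors. It was at 47.4, 77.9, 69.7, 51.4 and 50.9 CPM with ICB (1.15 ± 0.21, adjusted p = 0.000718). With 5-FU it was at 46.1, 57.8, 52.1, 37.4 and 49.8 CPM (0.84 ± 0.20, adjusted p = 0.00990). None of these 10 treated tumors overlapped with PBS.

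With 5-FU+ICB, Ifih1 was at 55.2, 57.9, 57.0, 59.1 and 90.9 CPM (1.25 ± 0.21, adjusted p = 0.000612), and without the high replicate 5 the change was 1.09 (adjusted p = 0.00109). Cisplatin tumors lay within 27.3, 28.5, 25.1 and 29.4 CPM, inside the PBS range. Cisplatin+ICB tumors were at 20.4, 49.4, 33.7, 55.2 and 48.6 CPM, with replicate 1 low (0.61 ± 0.25, adjusted p = 0.149), and without it the change was 0.85 ± 0.20 (adjusted p = 0.00582).

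Tmem173 (chr18:35733679-35740554, minus strand, ENSMUSG00000024349.10), the receptor of cyclic dinucleotides, was even among PBS tumors at 71.3, 70.9, 83.0 and 74.5 CPM. All ICB tumors were higher, at 148, 184, 182, 128 and 179 CPM (1.16 ± 0.25, adjusted p = 0.00195). All 5-FU+ICB tumors were higher as well, at 204, 133, 191, 156 and 287 CPM (1.40 ± 0.25, adjusted p = 0.000839). In 5-FU tumors, replicate 3 at 186 CPM stood above the others at 86.4, 94.5, 80.6 and 103 CPM, and the change missed the threshold (0.57 ± 0.24, adjusted p = 0.0891). Without replicate 3 it was 0.29 (adjusted p = 0.295).

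Cisplatin tumors had Tmem173 at 76.2, 67.4, 71.2 and 70.5 CPM, around the lower PBS values. Cisplatin+ICB tumors were at 38.0, 117, 80.4, 141 and 113 CPM (0.40 ± 0.26, adjusted p = 0.396), and replicate 1 was the lowest of all 28 tumors. Without it the change was 0.68 ± 0.16 (adjusted p = 0.00600), and without replicate 4 it was 0.24 (adjusted p = 0.715).

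Mavs (chr2:131234063-131248025, plus strand, ENSMUSG00000037523.13), the adaptor of both RNA sensors, was at 23.8, 17.6, 34.2 and 31.3 CPM in PBS and 32.0, 30.5, 41.8, 33.0 and 39.4 CPM in ICB tumors (0.44 ± 0.14). The change was 0.22 ± 0.14 with 5-FU (adjusted p = 0.243) and 0.32 ± 0.14 with 5-FU+ICB (adjusted p = 0.0668), the latter 0.18 without PBS replicate 2 (adjusted p = 0.232). With ICB it passed without PBS replicate 3 (0.54), PBS replicate 4 (0.51) or ICB replicate 2 (0.54). The group means were 26.7 CPM in PBS, 26.6 CPM with cisplatin, 30.5 CPM with 5-FU, 32.4 CPM with 5-FU+ICB and 35.3 CPM with ICB. Cisplatin+ICB tumors were at 5.46, 29.1, 29.7, 28.8 and 31.8 CPM, and replicate 1 was below all other tumors, as it was for Ddx58. The change with Cisplatin+ICB was -0.08 with this tumor (adjusted p = 0.939) and 0.25 without it (adjusted p = 0.197).

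Tbk1 (chr10:121546455-121586787, minus strand, ENSMUSG00000020115.3), the kinase below both adaptors, was at 42.2, 38.2, 45.2 and 41.8 CPM in PBS tumors. ICB tumors, at 57.0, 68.8, 45.7, 57.5 and 50.2 CPM, did not overlap with PBS although the change was modest (0.45 ± 0.14), and it passed without ICB replicate 3 (0.52). With 5-FU Tbk1 was at 38.2 ± 4.33 CPM (SD, n = 5) and with 5-FU+ICB at 43.1 ± 6.06 CPM (SD, n = 5), with changes of -0.12 ± 0.14 (adjusted p = 0.533) and 0.07 ± 0.14 (adjusted p = 0.699). Cisplatin tumors were at 42.7 ± 3.22 CPM (SD, n = 4), a change of 0.03 ± 0.17. Cisplatin+ICB tumors were at 31.1, 52.6, 47.2, 53.9 and 49.3 CPM, with replicate 1 low (0.18 ± 0.16, edgeR adjusted p = 0.593). Among the 8 genes, Tbk1 had the lowest unadjusted p between 5-FU+ICB and ICB (-0.38 ± 0.13, edgeR adjusted p = 0.271).

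Trex1 (chr9:109057933-109059734, minus strand, ENSMUSG00000049734.9), the negative regulator, was at 27.2, 26.5, 21.3 and 29.7 CPM in PBS tumors. ICB tumors were all higher, at 44.7, 80.3, 75.7, 39.2 and 50.5 CPM (1.17 ± 0.28, adjusted p = 0.00367). 5-FU+ICB tumors were at 73.5, 29.2, 50.6, 48.6 and 55.1 CPM (1.00 ± 0.28, adjusted p = 0.00889), with replicate 2 at the level of PBS. With 5-FU the change was 0.28 ± 0.27 (adjusted p = 0.458), with cisplatin -0.22 ± 0.29 (adjusted p = 1) and with Cisplatin+ICB 0.41 ± 0.27 (adjusted p = 0.415), or 0.59 without replicate 1 (adjusted p = 0.102) and 0.24 without replicate 4 (adjusted p = 0.732).

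Each combination was then set against its single treatments. Between 5-FU+ICB and ICB the changes of the 8 genes ranged from -0.38 (Tbk1) to 0.24 (Tmem173), and 0 passed edgeR's test, with 1 at an unadjusted p below 0.05 and 0 by DESeq2 (0.229% of all genes called). Zbp1 differed by -0.02 ± 0.16 (adjusted p = 0.979). Between 5-FU+ICB and 5-FU, 0 passed edgeR's test (0.0112% of all genes called) and 4 had an unadjusted p below 0.05. These were Tmem173 (0.83 ± 0.23, adjusted p = 0.135), Trex1 (0.72 ± 0.26, adjusted p = 0.200), Zbp1 (0.66 ± 0.16, adjusted p = 0.123) and Ifih1 (0.41 ± 0.19, adjusted p = 0.284). DESeq2 called 2 of them, Zbp1 and Tmem173, against 2.97% of all genes. The Ifih1 difference was 0.24 without 5-FU+ICB replicate 5 (adjusted p = 0.720). The Zbp1 groups did not overlap, as for 1.42% of all genes. Without 5-FU+ICB replicate 2, edgeR called Zbp1, Tmem173 and Trex1, against 10.9% of all genes, and without 5-FU replicate 3 it called Zbp1 and Tmem173, against 3.58% of all genes.

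The change on adding ICB was smaller with 5-FU present than without for Zbp1, but this difference missed the threshold (interaction -0.98 ± 0.23 log2 units, edgeR adjusted p = 0.0665). For all 8 genes 0 interactions passed edgeR's test (0.0893% of all genes called), 2 had an unadjusted p below 0.05 (Zbp1 and Ifih1) and DESeq2 called 1, Zbp1, against 9.57% of all genes it tested. The interaction of cisplatin and ICB gave 0 of the 8 by edgeR (0% of all genes), 0 at an unadjusted p below 0.05 and 0 by DESeq2.

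Cisplatin+ICB and ICB differed in 0 of the 8 genes by edgeR (0% of all genes called) and by DESeq2, with 3 at an unadjusted p below 0.05. Those were Trex1 (-0.76 ± 0.26, adjusted p = 0.291), Tmem173 (-0.74 ± 0.25, adjusted p = 0.291) and Ifih1 (-0.52 ± 0.23, adjusted p = 0.302). Without Cisplatin+ICB replicate 1 these differences were -0.61 for Trex1 (adjusted p = 0.531), -0.51 for Tmem173 (adjusted p = 0.518) and -0.32 for Ifih1 (adjusted p = 0.606). Between Cisplatin+ICB and Cisplatin, edgeR called 0 (0% of all genes), DESeq2 called Zbp1 (4.2% of all genes), and 3 had an unadjusted p below 0.05. Zbp1 was 1.07 ± 0.26 higher (adjusted p = 0.0823) with groups that did not overlap, as for 3.35% of all genes. Without Cisplatin+ICB replicate 1, Zbp1 (1.24, adjusted p = 0.00901), Ifih1 (0.82, adjusted p = 0.0190) and Tmem173 (0.73, adjusted p = 0.0131) passed, against 11.9% of all genes.

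The drugs were compared with each other in a fit of all 28 tumors. Between 5-FU and Cisplatin, edgeR called 0 of the 8 genes (0.362% of all genes called), 3 had an unadjusted p below 0.05 and DESeq2 called 2, against 3.67% of all genes. Ifih1 was 0.82 ± 0.23 higher with 5-FU (adjusted p = 0.105) and Zbp1 0.78 ± 0.23 higher (adjusted p = 0.114). The groups did not overlap for Ddx58, Ifih1 and Tmem173 (all higher with 5-FU) and Aim2 (lower), against 12.5% of all genes. Without Cisplatin+ICB replicate 1, which lies in neither group but adds to the shared estimate of spread, Zbp1 and Ifih1 passed (adjusted p = 0.0266 and 0.0129), against 6.64% of all genes. Between 5-FU+ICB and Cisplatin+ICB, edgeR called 0 of the 8 (0.297% of all genes called), 4 had an unadjusted p below 0.05 and DESeq2 called 1, Tmem173, against 8.32% of all genes it tested. Tmem173 was 0.99 ± 0.26 higher with 5-FU+ICB (edgeR adjusted p = 0.0654).

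Leukocyte genes were followed beside the members. Ptprc, the gene of the leukocyte surface protein CD45, was at 92.2, 105, 75.0 and 96 CPM in PBS tumors and at 314, 419, 443, 245 and 402 CPM in ICB tumors (2.00 ± 0.44, adjusted p = 0.00231). It changed by 1.09 ± 0.43 with 5-FU (adjusted p = 0.0654), 2.15 ± 0.44 with 5-FU+ICB (adjusted p = 0.00174) and 1.41 ± 0.33 with Cisplatin+ICB (adjusted p = 0.0238). Its change with cisplatin was 0.31 ± 0.34 (adjusted p = 1).

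Lists of cell type markers were counted in the same comparisons. Of all genes, 19% were called higher with ICB, 9.98% with 5-FU, 21.9% with 5-FU+ICB and 4.7% with Cisplatin+ICB. With ICB, 3 of 4 leukocyte, 6 of 6 T cell and 6 of 6 macrophage markers rose. The summed level went from 448 to 585 CPM in PBS to 1130 to 2673 CPM in ICB for the leukocyte list. For the T cell list it went from 25.1 to 37.5 CPM to 149 to 565 CPM, and for the macrophage list from 1349 to 2059 CPM to 2802 to 7724 CPM. With 5-FU 1 of 4, 4 of 6 and 2 of 6 of these lists rose, and with 5-FU+ICB 4 of 4, 6 of 6 and 4 of 6. With Cisplatin+ICB 2 of 4, 4 of 6 and 1 of 6 rose. Of 4 endothelial markers, 2 rose with ICB, 2 with 5-FU and 4 with 5-FU+ICB. Of 5 fibroblast markers, 4 rose with 5-FU and 2 with 5-FU+ICB, and of 4 B cell markers 3 rose with 5-FU+ICB. The B cell sum in 5-FU+ICB tumors was 30.0, 13.4, 14.9, 29.4 and 770 CPM, against 13.6 to 17.3 CPM in PBS, so replicate 5 dominated it. Of 5 skeletal muscle markers, 0 were called with ICB or 5-FU, but their sum varied widely. It was 101 to 167 CPM in PBS, 1.61 to 3157 CPM in ICB and 7.91 to 1307 CPM in 5-FU tumors. In 5-FU+ICB tumors it was 2.36 to 4357 CPM, and in Cisplatin+ICB tumors 70.6 to 855 CPM. Of 4 neutrophil markers tested, 2 rose with ICB, 1 with 5-FU, 1 with 5-FU+ICB and 4 with Cisplatin+ICB. Of 4 monocyte markers, 2 rose with ICB, 2 with 5-FU+ICB and 2 with Cisplatin+ICB. Of 5 dendritic cell markers, 2 rose with ICB, 3 with 5-FU+ICB and 1 with Cisplatin+ICB, and of 3 NK cell markers tested, 1 rose with ICB, 1 with 5-FU and 2 with 5-FU+ICB. Msln was at 52.0 to 217 CPM in ICB and 45.0 to 177 CPM in 5-FU tumors, below every PBS tumor (271 to 358 CPM), with adjusted p of 0.117 and 0.136, and fell with 5-FU+ICB (0.50 to 167 CPM, log2 fold change -2.28, adjusted p = 0.0238). Of the other 4 mesothelial or tumor markers tested, 0 were called lower in these treatments. Wt1 rose with ICB (3.03), 5-FU (2.67), 5-FU+ICB (3.75) and Cisplatin+ICB (2.83), Krt19 (5.74) and Pdpn (0.61) rose with 5-FU+ICB, and Krt8 was at -2.29 with ICB (adjusted p = 0.145) and 1.54 with 5-FU+ICB (adjusted p = 0.314). Wt1 did not exceed 90 counts in any tumor, so its changes rest on few counts, and Krt19 did not exceed 978. The mean log2 CPM of the 8 listed mesothelial or tumor markers was 1.39 and 1.68 in 5-FU+ICB replicates 4 and 5. In replicates 1, 2 and 3 it was 0.36, 0.39 and 0.20. The part of these cells in the members' changes was not tested.

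To set the members beside Ptprc, the log2 CPM of Ptprc was subtracted from that of each gene in each tumor. All 40 differences from PBS (8 genes in 5 treatments) were then negative, since Ptprc changed more than any member, and 0 had a Benjamini-Hochberg adjusted p below 0.05 (two-sided exact permutation tests; smallest adjusted p = 0.0529). The smallest p a comparison of 5 with 4 tumors can give is 0.00794, and one of 4 with 4 (cisplatin) 0.0286. Over 40 tests few such p-values can pass, so their absence does not show that members kept to Ptprc. With ICB, the differences did not overlap with PBS for Aim2, Tmem173, Tbk1, Mavs and Trex1, and overlapped for Zbp1, Ddx58 and Ifih1. They did not overlap for Aim2 and Trex1 with 5-FU, Aim2 with 5-FU+ICB, and Tmem173, Tbk1 and Trex1 with Cisplatin+ICB. Zbp1 stayed nearest to Ptprc in the 4 treatments other than cisplatin, at -0.36 with ICB, -0.03 with 5-FU, -0.29 with 5-FU+ICB and -0.12 with Cisplatin+ICB. With cisplatin Ddx58 was nearest, at -0.08, before Zbp1 at -0.11. Aim2 departed most in 3 treatments, at -2.54 with ICB, -1.44 with 5-FU and -2.50 with 5-FU+ICB.

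**Figure D3:**
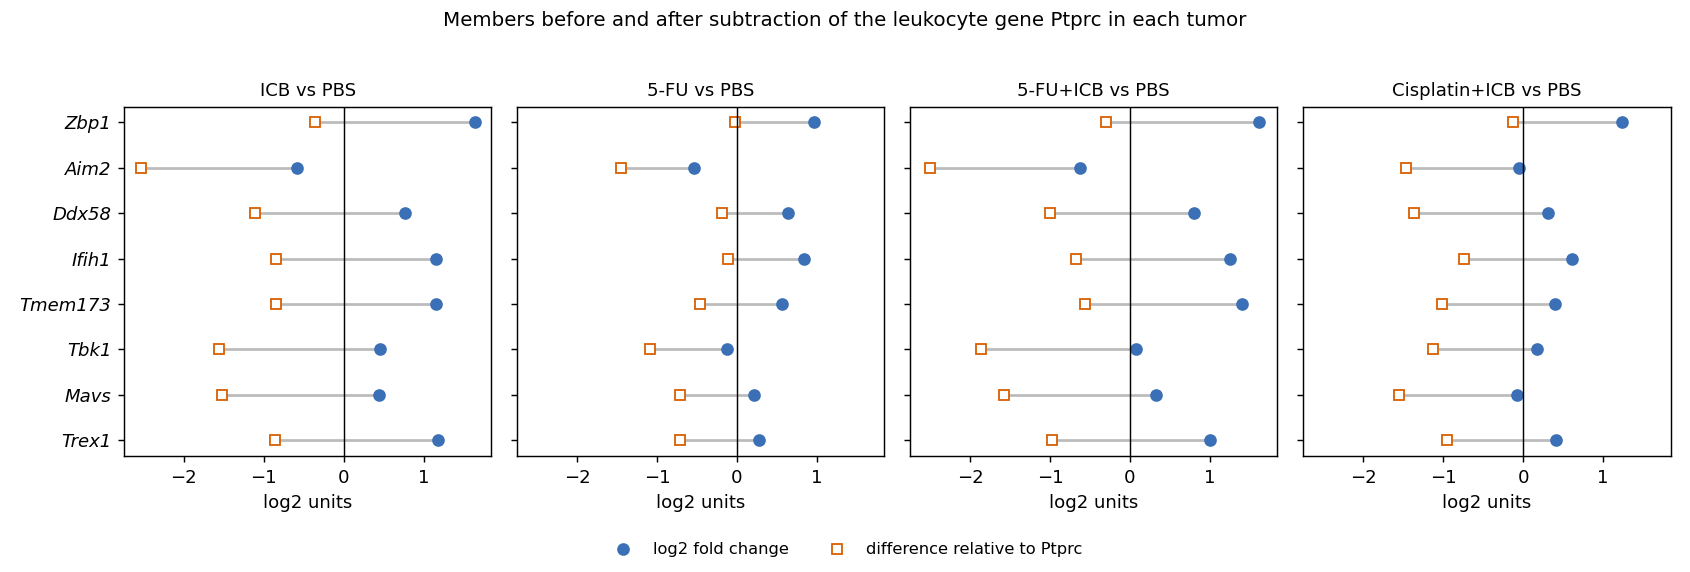
Difference of each gene from PBS (x axis, log2 units) in 4 treatments, as the fitted log2 fold change (filled circles) and after log2 CPM of Ptprc was subtracted in each tumor (open squares). All squares lie at or below 0, with Zbp1 nearest to it (-0.36 with ICB) and Aim2 farthest with ICB (-2.54), 5-FU and 5-FU+ICB.

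In 1 tumor, 5-FU+ICB replicate 2, Zbp1, Ddx58 and Ifih1 came apart from leukocyte genes. Its Ptprc was 105 CPM, level with the highest PBS tumor and the lowest of its group, where the other tumors were at 466, 342, 374 and 723 CPM. Its T cell markers summed to 46.5 CPM and were also the lowest of the group. Zbp1 in this tumor, at 235 CPM, was the highest of its group, and Ddx58 (111 CPM) and Ifih1 (57.9 CPM) were inside the range of the other 4 tumors. Tmem173 was the lowest of its group at 133 CPM, above all PBS tumors, and Trex1 (29.2 CPM) was in the PBS range. Aim2 (40.0 CPM) was the highest of its group and in the PBS range. This tumor was singled out after its values were seen. Over all 28 tumors, Pearson's r with Ptprc was 0.82 for Zbp1, 0.80 for Ifih1, 0.86 for Tmem173 and 0.91 for Trex1. It was 0.40 for Ddx58, 0.37 for Mavs, 0.31 for Tbk1 and -0.68 for Aim2. With group means subtracted, r was 0.46 for Zbp1, 0.57 for Ifih1, 0.77 for Tmem173, 0.85 for Trex1 and 0.27 for Ddx58. For Mavs, Tbk1 and Aim2 it was then 0.31, 0.03 and -0.57.

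**Figure D4:**
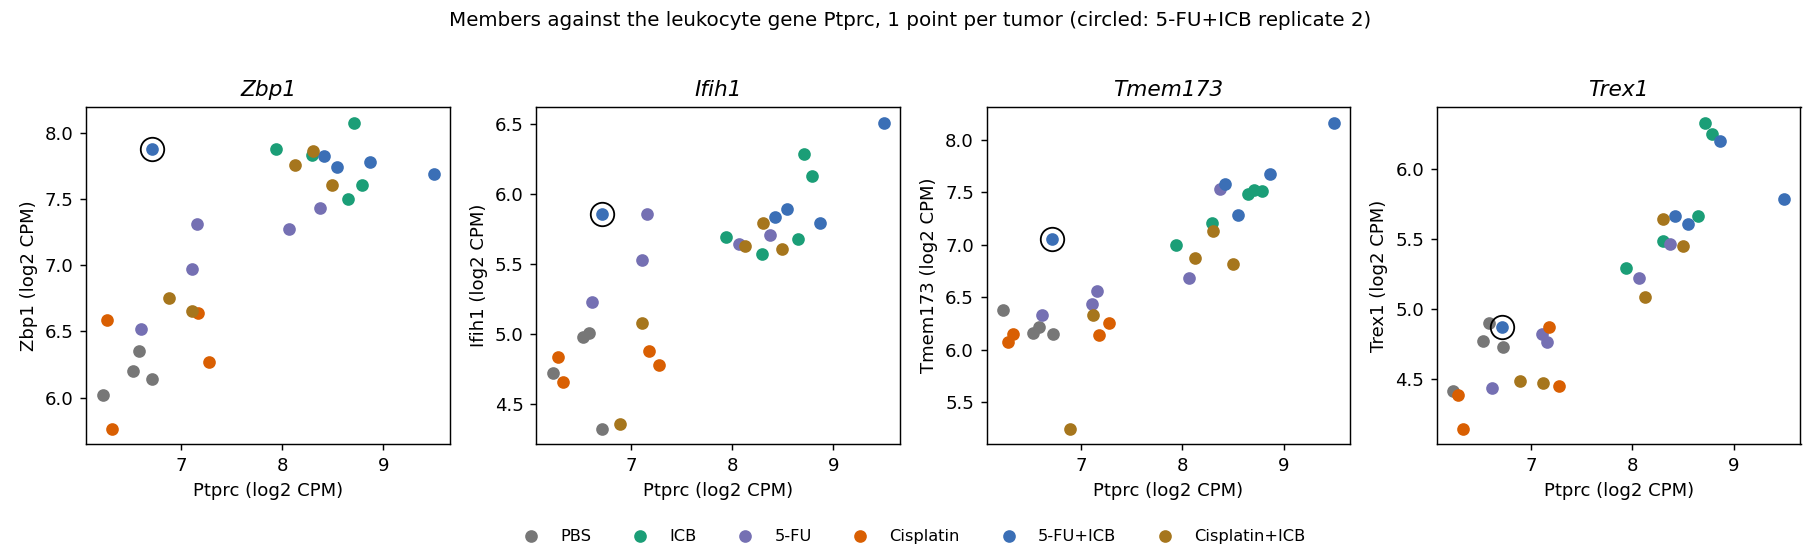
Log2 CPM of Zbp1, Ifih1, Tmem173 and Trex1 (y axes) against log2 CPM of Ptprc (x axis), 1 point per tumor, colored by treatment. The circled 5-FU+ICB replicate 2 sits at the Ptprc level of PBS tumors with Zbp1 and Ifih1 at the level of the other 5-FU+ICB tumors and Trex1 at the PBS level.

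The wider pathway was described through 106 genes in 9 lists, 103 of which had enough counts to be tested. These lists were chosen with earlier results of the data known, so their counts describe and do not test the pathway. With ICB 45 rose and 7 fell over PBS, with 5-FU 25 rose and 7 fell, with 5-FU+ICB 47 rose and 9 fell, and with Cisplatin+ICB 17 rose and 0 fell. With cisplatin 0 rose and 0 fell. The median log2 fold change over the 103 genes was 0.55 with ICB, 0.21 with 5-FU, 0.45 with 5-FU+ICB and 0.28 with Cisplatin+ICB. Over all genes tested the corresponding medians were -0.03, -0.01, -0.04 and 0.03. The shares of all genes called higher were 19%, 9.98%, 21.9% and 4.7%, and of those called lower 18.8%, 13%, 18.7% and 1.4%. In lists of 7 to 15 genes, a count near these shares says nothing particular about the list. Without Cisplatin+ICB replicate 1, 40 rose and 7 fell with Cisplatin+ICB, where 35.3% of all genes were then called in place of 6.1%. Without PBS replicate 2, 15 rose and 3 fell with 5-FU, where 7.87% of all genes were then called in place of 23%.

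Of 14 DNA sensors and PYHIN genes, the family of Aim2, 6 rose and 3 fell with ICB. The rises were led by Ifi209 (1.62) and Ifi203 (1.12) on the log2 scale, and the falls by the DNA-binding Hmgb1 (-0.84) and Hmgb2 (-0.83). With 5-FU 2 rose, Ifi205 (1.94) and Ifi203 (0.74), and Dhx36 fell (-0.53), counts near the shares of all genes (9.98% higher, 13% lower). With 5-FU+ICB 7 rose, led by Ifi205 (2.23) and Ifi209 (1.89), and 3 fell. Some of the PYHIN genes share similar sequence, so their counts may be uncertain. Cgas, the enzyme that feeds STING, was looked at after the values were known: it was at 25.1 ± 2.87 CPM in PBS (SD, n = 4) and 18.2 ± 3.13 CPM in ICB tumors (SD, n = 5), a difference that edgeR did not call (-0.45 ± 0.25, adjusted p = 0.159).

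Of 12 RNA sensors and cofactors, 5 rose and 1 fell with ICB, among them Oas3 (1.38), an oligoadenylate synthetase that binds RNA. G3bp1, a stress granule protein, fell (-0.51). With 5-FU 3 of the 12 rose, led by Oasl2 (1.05) and Oas3 (1.03), and with 5-FU+ICB 5 rose, among them Oas3 (1.51).

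Of 15 kinases, adaptors and transcription factors, 7 rose and 0 fell with ICB. Among them was the interferon regulatory factor Irf1 (1.94). Ikbke, which encodes the kinase most like Tbk1 and was picked after its values were seen, rose by 1.93. With 5-FU 4 rose, among them the adaptor Traf3 (0.99), and Irf3, the substrate of Tbk1, fell (-0.59). With 5-FU+ICB 8 rose and Irf3 again fell (-0.59). Irf3 was at 48.5 ± 4.65 CPM in PBS (SD, n = 4), 32.2 ± 2.69 CPM with 5-FU (SD, n = 5) and 31.8 ± 2.24 CPM with 5-FU+ICB (SD, n = 5).

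Of 13 genes of STING trafficking and cyclic dinucleotide handling, 3 rose with ICB, a share near the 19% of all genes called higher, and the largest rises were those of the cholesterol transporter Npc1 (1.59) and the ubiquitin ligase Trim56 (1.28). With 5-FU 2 rose, Trim56 (1.44) and Npc1 (0.85), again near the share of all genes (9.98%). With 5-FU+ICB 4 rose, led by Trim56 (1.48) and Enpp1 (1.21), the enzyme that hydrolyzes the dinucleotide, and the carrier Slc19a1 fell (-0.51). The median of this list with ICB was 0.08.

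Of 12 nucleases and nucleic acid processing genes, 5 rose and 2 fell with ICB. The secreted DNase Dnase1l3 (6.09) and the lysosomal nuclease Pld4 (2.08) led the rises, and both falls were subunits of ribonuclease H2, Rnaseh2c (-0.99) and Rnaseh2a (-0.85). With 5-FU 2 rose, Dnase1l3 (4.68) and Samhd1 (1.05), which hydrolyzes deoxynucleotides, and 3 fell, led by Rnaseh2c (-1.09) and Rnaseh2a (-0.98). With 5-FU+ICB 5 rose, led by Dnase1l3 (6.65) and Samhd1 (1.86), and 2 fell, Rnaseh2c (-1.07) and Rnaseh2a (-0.98).

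Of 7 partners of Aim2 in the inflammasome, 5 rose with ICB, while Aim2 itself was lower. Il1rn, the receptor antagonist that opposes interleukin-1, rose by 3.10 and Il1b, the cytokine, by 2.16. With 5-FU 2 rose, Il1rn (2.23) and the caspase Casp4 (0.61), and with 5-FU+ICB 3 rose, led by Il1rn (3.14) and Il18 (1.31). Of 7 partners of Zbp1 in cell death, 3 rose with ICB, led by the necroptosis kinase Ripk3 (1.21) and the caspase-8 regulator Cflar (1.11). With 5-FU Cflar rose (0.70) and the caspase Casp6 fell (-0.58), and with 5-FU+ICB Ripk3 (1.11) and Cflar (1.04) rose and Casp6 fell (-0.50). The counts of these 7 with 5-FU and 5-FU+ICB were near the shares of all genes.

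Of 13 negative regulators of sensing, 5 rose and 1 fell with ICB. The ubiquitin ligase Rnf125 (2.42) and Nlrc5 (2.09), which also activates MHC class I genes, led, and Banf1, a chromatin protein that limits DNA sensing, fell (-1.11). With 5-FU 3 rose, led by Rnf125 (2.16) and Tnfaip3 (1.87), and Banf1 fell (-0.66). With 5-FU+ICB 5 rose, led by Rnf125 (3.29) and Tnfaip3 (1.99), and Banf1 fell (-0.76).

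The last list held 13 interferons and induced genes, of which 10 could be tested. With ICB 6 rose, led by Ifng (5.26), the type II interferon, and the chemokine Ccl5 (4.55). With 5-FU 6 rose, led by Cxcl9 (3.24) and Ifng (2.69), and with 5-FU+ICB 8 rose, led by Ifng (4.74) and Cxcl9 (4.48). With Cisplatin+ICB 4 rose, Ifng (4.34), Cxcl9 (3.28), Ccl5 (3.01) and Cxcl10 (1.77). The 3 type I interferon genes in the list were at the edge of detection: Ifnb1 had at most 4 counts in any tumor, Ifna2 at most 2 and Ifna4 at most 1, and 3 counts corresponded to 0.0822 to 0.159 CPM.

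**Figure D5:**
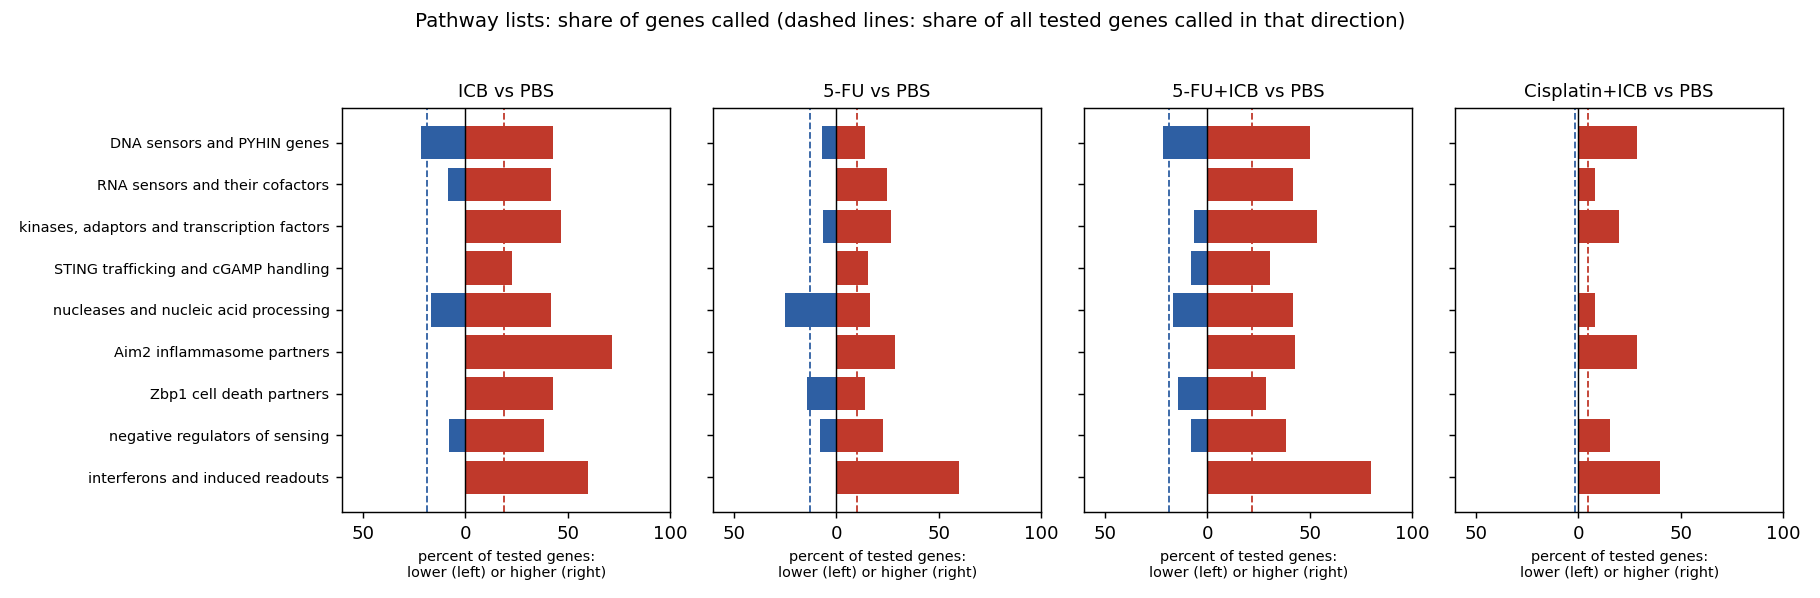
Percent of the tested genes of each pathway list called lower (left of 0) or higher (right of 0) than PBS in 4 treatments, with dashed lines at the percent of all tested genes called in that direction. With ICB and 5-FU+ICB every list has a larger share called higher than all genes do (19% and 21.9%), and the interferon list leads with 5-FU+ICB (8 of 10). The STING list with ICB (3 of 13) is near the share of all genes. The lists were chosen with earlier results of these data known, so an excess over all genes may be built in.

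For each member the genes with the most alike log2 CPM over the 28 tumors were looked up among 13333 genes. Pearson's r is given as a description of tumors that share groups and 1 outlying library. Zbp1 was most like Cxcl11 (r = 0.97), Gm43302 and Tgtp2. Ddx58 was most like Adar (r = 0.98), Ccdc97 and Pml, and Ifih1 was most like Trim30a (r = 0.96), Lgals3bp and Sp100. Tmem173 was most like Max (r = 0.97), Il2rg and Cmtm6, and Trex1 was most like Gpsm3 (r = 0.94), Prr13 and Rab20. Aim2 was most like Mettl2 (r = 0.97), 2610044O15Rik8 and Ube2t. Mavs was most like Ube3b (r = 0.98), Lasp1 and Acsf2, and Tbk1 was most like Gtpbp2 (r = 0.95), Ap5z1 and Als2cl.

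After group means were subtracted, Zbp1 was most like Cxcl11 (r = 0.90), Ifih1 like Trim30a (r = 0.92) and Tbk1 like Gtpbp2 (r = 0.93). The first place went to Slc7a6os for Aim2 (r = 0.97), Dcaf5 for Ddx58 (r = 0.98), Pnrc1 for Tmem173 (r = 0.95), Lasp1 for Mavs (r = 0.99) and Fermt3 for Trex1 (r = 0.92). With Cisplatin+ICB replicate 1 also left out, Trim30a (r = 0.88) and Fermt3 (r = 0.91) were still first for Ifih1 and Trex1. First place went to Gm43302 for Zbp1 (r = 0.91), Stk25 for Aim2 (r = 0.95), Pml for Ddx58 (r = 0.92), Leprotl1 for Tmem173 (r = 0.94), Zfp653 for Tbk1 (r = 0.89) and Celf2 for Mavs (r = 0.97). Without that tumor and without subtracting group means, the first places over the remaining 27 tumors went to Gm43302 for Zbp1 (r = 0.98), Oas3 for Ddx58 (r = 0.95), Mettl2 for Aim2 (r = 0.95), Il2rg for Tmem173 (r = 0.97), Arhgef7 for Mavs (r = 0.94) and Efhd2 for Trex1 (r = 0.95), and stayed with Trim30a for Ifih1 (r = 0.96) and Gtpbp2 for Tbk1 (r = 0.95).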

How the data were processed

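RNA from 28 whole tumors was sequenced as 100-base single-end reads. The authors deposited 2 tables of estimated counts per gene, 1 per drug, both with the same PBS and ICB tumors. The submitters' processing notes name bcl2fastq 2.20.0.422, kallisto 0.46.0 and mouse build GRCm38. Here the deposited estimated counts were rounded to whole numbers, genes with too few counts were removed with edgeR's default filter, and libraries were scaled by TMM. CPM use the scaled library sizes. Groups came from the sample labels, which give 4 Cisplatin tumors. The series' design text describes 5, of which 4 are analysed here. Each tumor came from its own mouse.

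The 4 groups of a table were fitted together with edgeR 4.0.16 (quasi-likelihood test, R 4.3.3, limma 3.58.1), and comparisons between drugs in a joined table of all 28 tumors. A gene was called at a Benjamini-Hochberg adjusted p below 0.05 over all genes tested with an absolute log2 fold change above 0.5. 17916, 17819 and 18521 genes were tested in the 5-FU, cisplatin and joined fits. Log2 CPM used a prior count of 2. DESeq2 1.42.0, other scalings and filters, a replicate block, other sets of tumors and each tumor left out were alternatives. The scripts were tested on simulated data.

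The 8 members and the lists were chosen with earlier results of these data known. All members were named. From each pathway list, up to 2 called genes with the largest rise and up to 2 with the largest fall with ICB, 5-FU and 5-FU+ICB were named, called genes in other comparisons might be, and any other is said to be chosen after its values were seen. List symbols not in the tables were matched through RefSeq synonyms, Mb21d1 to Cgas, Mnda to Ifi211 and Pyhin1 to Ifi209. Of the listed names, 26 had been turned into dates by a spreadsheet and could not be matched. Gene positions and exonic lengths were from GENCODE M21. Errors of changes are standard errors of the fit across tumors, and the floor of 3 counts covers counting error only. Some results of the named-gene rule are not reported here.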

Additional observations from a re-analysis of the deposited data

Results flagged for a closer look

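In 48 groups of 4 or 5 tumors (8 genes in 6 treatments), 5 had a tumor whose distance from its nearest neighbor exceeded Dixon's 95% limit for the range of the group. Chance gives about 1 in 20 groups. Cisplatin+ICB replicate 1 accounted for 4 of them. Its Aim2 was at 100 CPM, where the other tumors of its group were at 26.1 to 37.6 CPM, and its Ddx58 was at 5.04 CPM (others 75.4 to 104 CPM). Its Tbk1 was at 31.1 CPM (others 47.2 to 53.9 CPM) and its Mavs at 5.46 CPM (others 28.8 to 31.8 CPM). The fifth was Ifih1 at 90.9 CPM in 5-FU+ICB replicate 5 (others 55.2 to 59.1 CPM), the tumor with the lowest Msln, the highest Ptprc and the highest mitochondrial share. The cause was not tested.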

How the results depend on the processing

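With ICB and 5-FU+ICB against PBS, Zbp1, Ifih1, Tmem173 and Trex1 were called in every alternative run except the scaling to Ptprc, and with 5-FU Zbp1 and Ifih1 were. Tbk1 and Mavs, not called with ICB, passed in 4 and 6 of 30 alternatives. Among these was the one that required no size of change, which called 41.9% of all genes. Subtracting Ptprc moves all genes of a tumor by the same amount, so its larger change fixed that every member above PBS turned, and these turns say nothing of how stable the members are. The direction turned for Zbp1 (-0.36), Ddx58 (-1.11), Ifih1 (-0.85), Tmem173 (-0.84), Tbk1 (-1.56), Mavs (-1.52) and Trex1 (-0.86) with ICB. It turned for Zbp1 (-0.027), Ddx58 (-0.19), Ifih1 (-0.11), Tmem173 (-0.46), Mavs (-0.71) and Trex1 (-0.71) with 5-FU. With 5-FU+ICB it turned for Zbp1 (-0.29), Ddx58 (-1.01), Ifih1 (-0.68), Tmem173 (-0.57), Tbk1 (-1.86), Mavs (-1.57) and Trex1 (-0.97). With Cisplatin+ICB it turned for Zbp1 (-0.12), Ddx58 (-1.36), Ifih1 (-0.74), Tmem173 (-1.01), Tbk1 (-1.13) and Trex1 (-0.95).

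Leaving out each tumor in turn gave 5 to 7 members called with ICB, 2 to 4 with 5-FU, 5 to 6 with 5-FU+ICB, 0 to 0 with cisplatin and 0 to 4 with Cisplatin+ICB, all against PBS. The shares of all genes called in these fits were 28.4% to 41.6%, 7.87% to 27%, 30.6% to 48.8%, 0% and 0% to 35.3%. Leaving out 1 tumor gave 0 to 0 for 5-FU+ICB against ICB (0.00562% to 0.468% of all genes) and 0 to 3 for 5-FU+ICB against 5-FU (0% to 10.9%). It gave 0 to 0 for Cisplatin+ICB against ICB (0%) and 0 to 3 for Cisplatin+ICB against Cisplatin (0% to 11.9%). It gave 0 to 2 for 5-FU against Cisplatin (0.00528% to 6.64%) and 0 to 1 for 5-FU+ICB against Cisplatin+ICB (0.00541% to 11.6%). It gave 0 to 1 for the interaction of 5-FU and ICB (0% to 9.27%) and 0 to 0 for that of cisplatin and ICB (0%). The 1 interaction was Zbp1, without PBS replicate 3 or 4, 5-FU replicate 4 or 5-FU+ICB replicate 4, against 9.27%, 5.56%, 0.456% and 5.35% of all genes. Tmem173 between the combinations passed without 5-FU+ICB replicate 2 or Cisplatin+ICB replicate 5 (11.6% and 6.1% of all genes), and Zbp1 between Cisplatin+ICB and Cisplatin without Cisplatin+ICB replicate 3 (3.04%).

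DESeq2 called 2 members for 5-FU+ICB against 5-FU, 1 for Cisplatin+ICB against Cisplatin, 2 for 5-FU against Cisplatin, 1 between the combinations and 1 for the interaction of 5-FU and ICB, each 0 with edgeR. Genome-wide DESeq2 called 1542 genes against 16 for this interaction, 539 against 2 for 5-FU+ICB against 5-FU, 783 against 0 for Cisplatin+ICB against Cisplatin, 663 against 67 for 5-FU against Cisplatin, 1620 against 55 between the combinations, 2156 against 1087 for Cisplatin+ICB against PBS, and 327 against 41 for 5-FU+ICB against ICB. With PBS replicate 2 and Cisplatin+ICB replicate 1 both left out (chosen after seeing the data), 3 members were called for Cisplatin+ICB against PBS (25.2% of all genes), 4 against Cisplatin (17.7%) and 3 for 5-FU against Cisplatin (8.65%). With only the groups compared in the fit, 0 were called for Cisplatin+ICB against PBS (0% of all genes) and 2 for 5-FU against Cisplatin (5.62%). The fit of the cisplatin table, which holds the same PBS and ICB tumors, called 4 members with ICB, without Aim2 and Ddx58, against 26.2% of all genes. For 5-FU against PBS, 4115 genes were called, 1436 without PBS replicate 2, 2469 without a filter and 825 in a fit of all 28 tumors. For Cisplatin+ICB against PBS, 1087 were called, 624 without a filter, 0 without PBS replicate 1, 3 or 4. The count was 6277 once Cisplatin+ICB replicate 1 was removed.

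Tumors with the same replicate number did not vary together: of 66 such pairs 23 had a correlation above 0.1 (median -0.04), and 6 of 28 tumors correlated best with their own number. With a replicate block, Ddx58 missed the threshold with 5-FU (0.67, adjusted p = 0.0709), no other member's call changed, and the genes called for Cisplatin+ICB against PBS went from 1087 to 95.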
